A study of Mus musculus with 24 samples.

Results

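The genes described here are 49 protein-coding genes of the neuronal cytoskeleton and of the synapse, taken by name from the 22380 protein-coding genes of GENCODE M1 on the mouse genome build mm9. The names were given as a list, so that no measured value of these libraries enters the rule, although earlier results of the data were known when the list was made. Every gene of the list was found in the annotation, Map1b and Map2 under their older symbols Mtap1b and Mtap2.

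RNA came from CCE cells and from fetal head (FH). CCE is a feeder-independent embryonic stem cell line of strain 129/SvEv, and all CCE samples had been differentiated by taking away LIF and adding 0.266 µM retinoic acid for 5 days. FH was dissected at 14.5 days postcoitum from wild type FVB/N embryos, so that strain and tissue cannot be told apart. Total RNA was depleted of ribosomal RNA with the RiboMinus or the Ribo-Zero kit. The RiboMinus data are 14 libraries of 7 cDNA preparations, namely CCE1 and CCE2, each sheared as cDNA and hydrolysed as RNA, and FH1 sheared, FH1 hydrolysed and FH2 hydrolysed, the last after 2 rounds of depletion. The CCE preparations are technical replicates and no separate animals are stated for FH, so that p values measure the spread between preparations. The RNA for the 2 Ribo-Zero libraries, 1 of each tissue, was a biological replicate.

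Neurons keep long processes stable with microtubules, which are built from tubulin and bound by proteins such as MAP1B, MAP2 and tau, and with neurofilaments. Kinesins carry vesicles along the microtubules, ankyrins tie channels and adhesion molecules to the membrane skeleton, and the SNARE proteins with synaptotagmins let synaptic vesicles release transmitter onto receptors of the next cell. Many of these genes are held off in other cell types by the repressor REST, which binds a DNA element called RE1.

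A RiboMinus library listed 920424 to 2473448 tags that map to 1 place, with 28708715 in the CCE and 48426051 in the FH Ribo-Zero library, and a tag was given to a gene by its midpoint. A level is the RPKM of a gene, which is tags per kb of merged exon and per 1000000 unique tags. The exons of protein-coding genes took 64.0% to 71.1% of the tags of CCE RiboMinus libraries and 43.7% to 60.1% of those of FH. The library of FH1 hydrolysed sequenced at Nijmegen had the lowest share, and without this preparation the number of the 49 genes called higher on exons was 42, as with it. The neuronal markers fixed as a check (Elavl3, Elavl4, Rbfox3, Neurod6, Tbr1 and Nhlh1) were called higher in FH in 6 of 6 cases. Each had a CCE mean of at most 0.242 RPKM and entered the test described below only through FH, so that this outcome was set in advance. The summed level of these markers ran from 0.277 to 0.735 RPKM in CCE, with Neurod6 at 0, and from 70.6 to 82.3 in FH. All 3 markers of pluripotent cells were lower in FH, from a sum of 30.6 to 33.4 RPKM in CCE, and so were 5 of 6 markers of primitive endoderm, from 81.8 to 145. FH also held markers of other tissues, such as 4 erythroid markers with a sum of 579 to 1254 RPKM, 4 of epidermis with 161 to 203, 5 of cartilage and bone with 155 to 205, 3 of lens with 187 to 233 and 4 of skeletal muscle with 110 to 150. Of the markers tested, 4 of 5 for neural progenitors and 3 of 3 for glia and neural crest were higher in FH, as were all tested for the tissues just named. Of all genes tested 19.9% were called higher and 34.8% lower. Most of these markers entered the test only through the tissue where they were high, so that the marker counts had little room to be otherwise. The part of these other cell types in the results was not tested. In such mixed tissue, fewer cells of a type and less RNA per cell cannot be told apart.

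The 49 genes took 0.0601% to 0.0695% of the unique tags of a CCE preparation and 0.517% to 0.554% of those of an FH preparation. In the Ribo-Zero libraries they took 0.0621% in CCE and 0.546% in FH. For the test between tissues, log2 values of the RPKM plus 1 were compared with limma for genes with a mean above 3 RPKM in at least 1 tissue. Of the 49 genes, 43 passed this filter and 42 of them were called higher in FH and 0 lower, where 19.9% of all 10306 genes tested were called higher. As 33 of the 43 had a CCE mean of 3 RPKM or less and passed only through FH, this count had little room to be otherwise. With no filter 46 of the 49 were called higher and 0 lower, against 15.0% of all genes. The median log2 fold change of the 43 was 2.39, and that of all genes tested was -0.34, a shift that came to 0.06 when the libraries were scaled to the tags in protein-coding exons. The lowest FH preparation lay above the highest CCE preparation in 42 of the 43 genes tested, and in 20.3% of all genes tested. This count is limited in the same way by the 33 genes that passed only through FH.

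**Figure D1:**
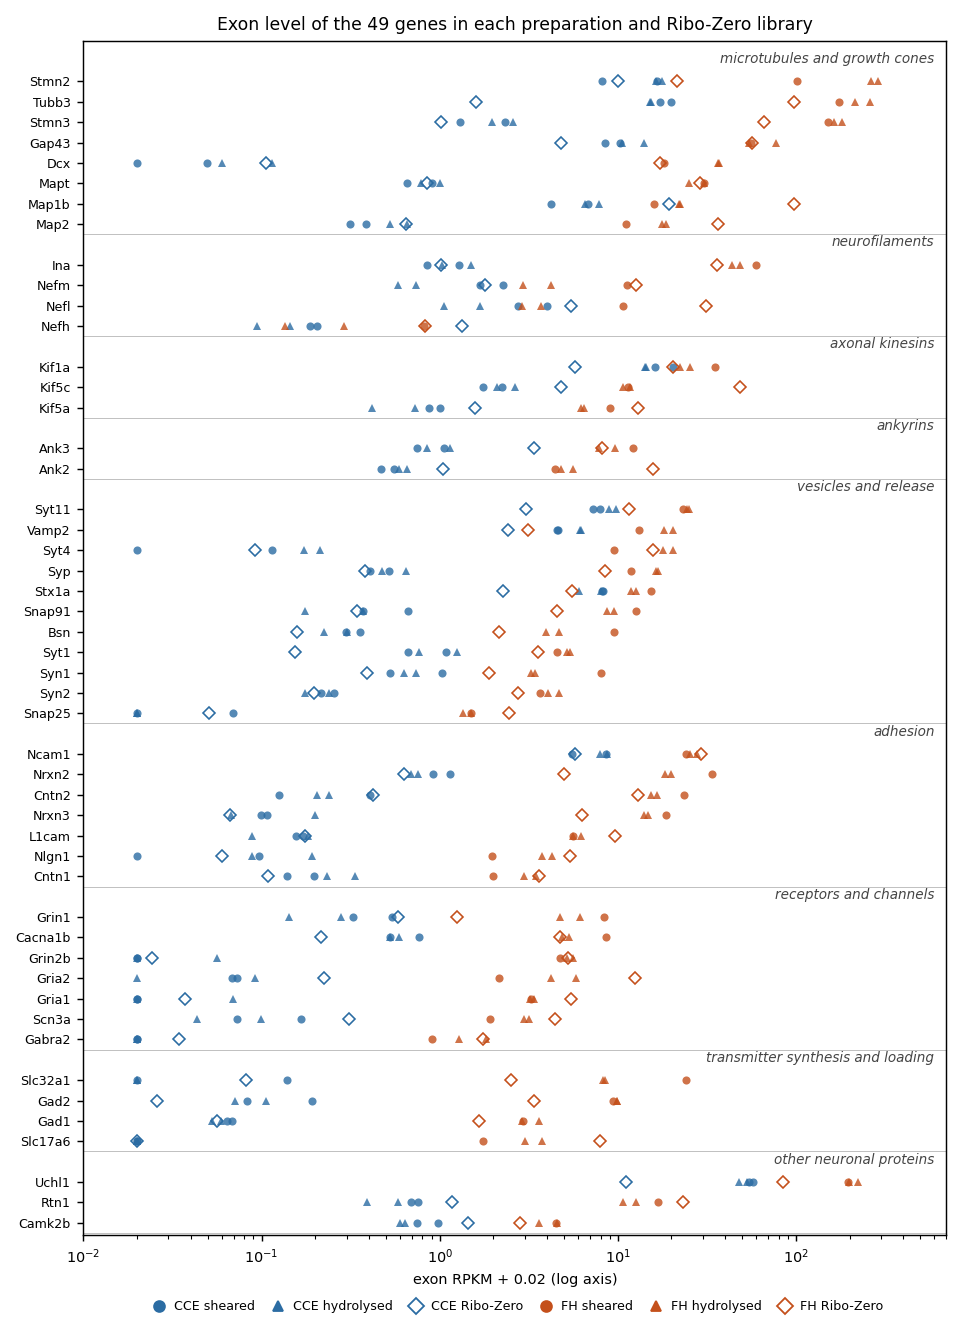
Exon RPKM plus 0.02 on a log axis for each of the 49 genes, grouped by role, with 1 symbol per RiboMinus preparation (circles sheared, triangles hydrolysed) and open diamonds for the Ribo-Zero libraries, CCE in blue and FH in orange. CCE and FH preparations overlap in 2 genes, Nefl and Nefh, and the Ribo-Zero value of Nefh is lower in FH.

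The CCE level divided the genes. A mean CCE level above 3 RPKM was found in 10 genes, which are Uchl1, Tubb3, Kif1a, Stmn2, Gap43, Syt11, Ncam1, Stx1a, Map1b and Vamp2, and all 10 were called higher in FH. A mean CCE level under 0.5 RPKM was found in 24 genes. By mean RPKM 32 genes were over 10-fold higher in FH and 10 were under 5-fold. The 32 include Gabra2 and Slc17a6, which had no CCE tag, so that their fold change is only a bound. They also include Snap25, Gria1, Grin2b and Slc32a1, which had 1 CCE tag each. FH means above 100 RPKM were reached by 4 genes, Stmn2, Tubb3, Uchl1 and Stmn3. Shares of all genes at these levels are not given, so that the counts describe only this list.

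The genome was searched on both strands for a core of the RE1 element, CAGCACC, any 2 bases and GGACAG, inside each gene and 5 kb to either side. The core lay in or near 13 of the 49 genes (26.5%), against 410 of all 22380 genes (1.83%), 10 of 51 other neuronal cytoskeleton and synapse genes (19.6%) and 1 of 26 widely expressed relatives (3.85%). Counted per Mb searched, there were 1.75 cores for the 49 genes, 1.02 for the other neuronal genes, 0.601 for the relatives and 0.367 for all genes. The matches of 12 of these genes are shown because genes from the lowest to the highest levels hold one, with both arms of the core in capitals and coordinates on mm9, and each line reads along the core's own strand. Snap25 and L1cam hold a pair each, and Syt4, the remaining gene, has its match in an exon.
Stmn2, chr3:8508230-8508250: ttCAGCACCacGGACAGcgct
Tubb3, chr8:125938356-125938376: gtCAGCACCtcGGACAGcaac
Nefm, chr14:68743781-68743801: ggCAGCACCaaGGACAGcgcc
Nefh, chr11:4849401-4849421: ttCAGCACCacGGACAGcagc
Ina, chr19:47091165-47091185: atCAGCACCtcGGACAGcgcc
Syp, chrX:7215863-7215883: tcCAGCACCgtGGACAGagcc
Snap25, chr2:136540024-136540044: ctCAGCACCctGGACAGgagt
Snap25, chr2:136540074-136540094: ttCAGCACCgcGGACAGcgat
Grin1, chr2:25174534-25174554: ttCAGCACCtcGGACAGcacc
Cacna1b, chr2:24617603-24617623: gtCAGCACCacGGACAGctgc
Gad1, chr2:70397755-70397775: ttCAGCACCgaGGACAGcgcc
L1cam, chrX:71114846-71114866: tcCAGCACCacGGACAGcaga
L1cam, chrX:71114876-71114896: gtCAGCACCatGGACAGgaac
Dcx, chrX:140339418-140339438: ttCAGCACCatGGACAGcaca
The cores of Stmn2, Nefm and Nefh lie 1297, 898 and 1354 bases before the annotated start of the gene. Those of Grin1 and Syp lie in an exon, 153 and 266 bases after it. The remaining cores printed are in introns, at a distance of 835 bases in Snap25 to 28416 in Dcx. In CCE the 13 genes with a core ran from 0.0123 to 16.9 RPKM with a median of 0.301, and 2 of them, Stmn2 and Tubb3, were above 3 RPKM. The 36 genes without one ran from 0 to 53.2 with a median of 0.648, and 8 of them were above 3. Promoter windows of 300 bases around RefSeq gene starts on GRCm38 were found for 33 of the 49 genes, and 0 of their 49 windows held the core, as against 12 of 32851 windows in all (0.0365%).

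Of the microtubule and growth cone genes 8 of 8 were called higher in FH, where 19.9% of all genes tested were. Their median log2 fold change was 3.66 on the scale of RPKM plus 1. Stmn3, Dcx, Mapt and Map2 had CCE means under 3 RPKM and passed the filter only through FH. Values of preparations are given in the order CCE1 sheared, CCE1 hydrolysed, CCE2 sheared, CCE2 hydrolysed and then FH1 sheared, FH1 hydrolysed, FH2 hydrolysed, with fold changes ± SE, n = 4 for CCE and n = 3 for FH and p values adjusted over all genes tested. Tubb3 (chr8:125935324-125945915), the beta-tubulin used as a marker of neurons, was at 17.2, 15.2, 20.0 and 15.3 RPKM in CCE and at 175, 259 and 216 in FH. Its log2 fold change was 3.59 ± 0.20 with an adjusted p of 1.58e-06, and as its exons lie inside the span of Gm20388, tags of these 2 annotated genes cannot be told apart. Stmn2 (chr3:8509527-8561604), a stathmin that binds free tubulin in growth cones, was at 16.5, 17.6, 8.15 and 16.4 RPKM in CCE and at 101, 263 and 289 in FH. CCE2 sheared and FH1 sheared were the low preparations of their tissues, and the log2 fold change was 3.72 ± 0.40 (adjusted p = 7.10e-05).

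Stmn3, a relative of Stmn2, had the largest fold change of all 49 genes on the scale of log2(RPKM + 1), from 1.28 to 2.56 RPKM in CCE to 152 to 181 in FH, with a log2 fold change of 5.80 ± 0.20. Dcx, the doublecortin of migrating young neurons, had 7 tags in all CCE preparations together and 4195 in FH, and its level rose from at most 0.0939 to between 18.2 and 37.2 RPKM. Mapt, which encodes tau, rose from a mean of 0.820 ± 0.151 RPKM (SD, n = 4) to 28.6 ± 3.01 (n = 3). Map2, a dendrite protein, rose from 0.448 ± 0.150 to 15.9 ± 4.13 RPKM. Gap43, a growth cone phosphoprotein, and Map1b, the microtubule protein of growing axons, started from higher CCE means of 10.8 ± 2.32 and 6.34 ± 1.52 RPKM. Their changes were smaller, to 62.4 ± 12.5 and 20.1 ± 3.67 in FH, with log2 fold changes of 2.42 ± 0.21 and 1.53 ± 0.23.

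Of 4 neurofilament genes 3 passed the filter, each only through FH. Among these 3, 2 were called higher and 0 lower, where 19.9% of all genes tested were called higher. Ina (chr19:47089188-47099817), encoding alpha-internexin, the filament protein of young neurons, was at 0.827, 1.01, 1.26 and 1.47 RPKM in CCE and at 60.0, 43.9 and 48.8 in FH (log2 fold change 4.60 ± 0.19, adjusted p = 4.60e-07). Nefm (chr14:68700647-68742903), the medium chain, was at 2.26, 0.563, 1.66 and 0.719 RPKM in CCE and at 11.2, 2.93 and 4.20 in FH. FH was above CCE in each preparation of Nefm, with a log2 fold change of 1.52 ± 0.41 (adjusted p = 0.0122), and without the filter on low genes the adjusted p was 0.0632. Nefl (chr14:68701920-68707152), the light chain, was at 3.96, 1.04, 2.73 and 1.67 RPKM in CCE and at 10.7, 2.87 and 3.70 in FH. The tissues overlapped in Nefl, whose log2 fold change of 0.91 ± 0.42 was the only one of the 43 that missed the threshold (adjusted p = 0.0973). With fragmentation as a covariate it was 1.10 with an adjusted p of 0.000521. The sheared preparations were the high ones in both tissues in Nefl and Nefm, and M1 draws Nefm over the whole of Nefl, so that some exon positions count for both.

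Nefh (chr11:4838757-4848067), the heavy chain, which joins filaments late in maturation, was at 0.168, 0.125, 0.185 and 0.0744 RPKM in CCE and at 0.795, 0.270 and 0.116 in FH. It rested on 7 and 12 tags and was not tested. In the Ribo-Zero libraries Nefh was the only one of the 49 genes with a lower value in FH, 0.812 against 1.31 RPKM, a ratio of 0.621 with a 95% interval of 0.493 to 0.781 that covers counting error only.

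Kinesins of axonal transport were called higher in 3 of 3 cases, where 19.9% of all genes tested were. Kif5c and Kif5a passed the filter only through FH. Kif1a (chr1:94912033-94998442), which carries synaptic vesicle precursors, was at 16.1, 14.2, 20.3 and 14.4 RPKM in CCE and at 35.2, 22.3 and 25.3 in FH. The tissues lay close, with a log2 fold change of 0.72 ± 0.21 (adjusted p = 0.0195), and the call was lost without CCE1 hydrolysed (0.66, adjusted p = 0.0571), CCE2 hydrolysed (0.67, 0.0501) or FH1 sheared (0.53, 0.0573). Kif5c (chr2:49474818-49630298), a conventional kinesin heavy chain of neurons, was at 1.73, 2.63, 2.23 and 2.08 RPKM in CCE and at 11.4, 11.7 and 10.7 in FH, a log2 fold change of 1.96 ± 0.17. Kif5a, its close relative, rose from 0.736 ± 0.253 to 7.22 ± 1.60 RPKM.

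Both ankyrins were called higher, where 19.9% of all genes tested were, but both passed the filter only through FH. Ank2 (chr3:126624525-127111949) was at 0.447, 0.639, 0.536 and 0.569 RPKM in CCE and at 4.42, 4.81 and 5.58 in FH, a log2 fold change of 1.94 ± 0.14 (adjusted p = 7.93e-06). Ank3 (chr10:68996970-69490184), whose protein gathers sodium channels at the axon initial segment, was at 0.725, 0.826, 1.04 and 1.12 RPKM in CCE and at 12.2, 7.86 and 9.67 in FH, a log2 fold change of 2.49 ± 0.19 (adjusted p = 7.95e-06). FH lay far above CCE in every preparation of both genes. The shares of tags in parts of them differed between the tissues as well. In Ank2 the test of this share could not reach the threshold, and in Ank3 no test was made.

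Ank3 tags were spread differently over the exons in the 2 tissues, which was not tested. From its 27th merged exon in transcript order, which has 660 bp (chr10:69388280-69388939), to its last, the 20 exons were at a mean of 1.00 RPKM in CCE and 3.71 in FH. The 26 exons before it were at 0.740 in CCE and 25.2 in FH. These 5′ exons took 43.5%, 17.1%, 16.7% and 20.0% of the Ank3 exon tags in the CCE preparations and 81.2%, 66.1% and 69.4% in those of FH, so that the tissues did not overlap. The Ribo-Zero libraries, from other RNA and deeper, were read with the same split. In CCE the first part of the gene was at 0.784 RPKM and the rest at 4.44, while in FH they were at 12.9 and 6.16. The 5′ exons thus held 6.69% (95% exact binomial interval 5.24 to 8.39) of 1032 tags in CCE and 46.0% (44.5 to 47.5) of 4176 in FH. The N-terminal part of ankyrin-G holds the ankyrin repeats, and shorter forms of the protein that lack them are known.

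The introns of Ank3 were also denser in tags near the 3′ end in CCE. The gene span was cut into 3 equal parts, which do not begin at the exon split. Their introns held 0.937, 0.466 and 3.51 tags per kb from 5′ to 3′ in the CCE Ribo-Zero library. The pooled CCE RiboMinus libraries held 0.164, 0.0981 and 0.651. Over the 20 genes with at least 100 intron tags in CCE Ribo-Zero, first over last part ran from 0.0743 to 5.14. In Ank3 it was 0.267, so that the order is not particular to this gene. In FH the parts were at 61.7, 39.2 and 56.5 tags per kb with Ribo-Zero. Since the split was placed after the tags along the gene had been seen, no test was made of it.

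**Figure D2:**
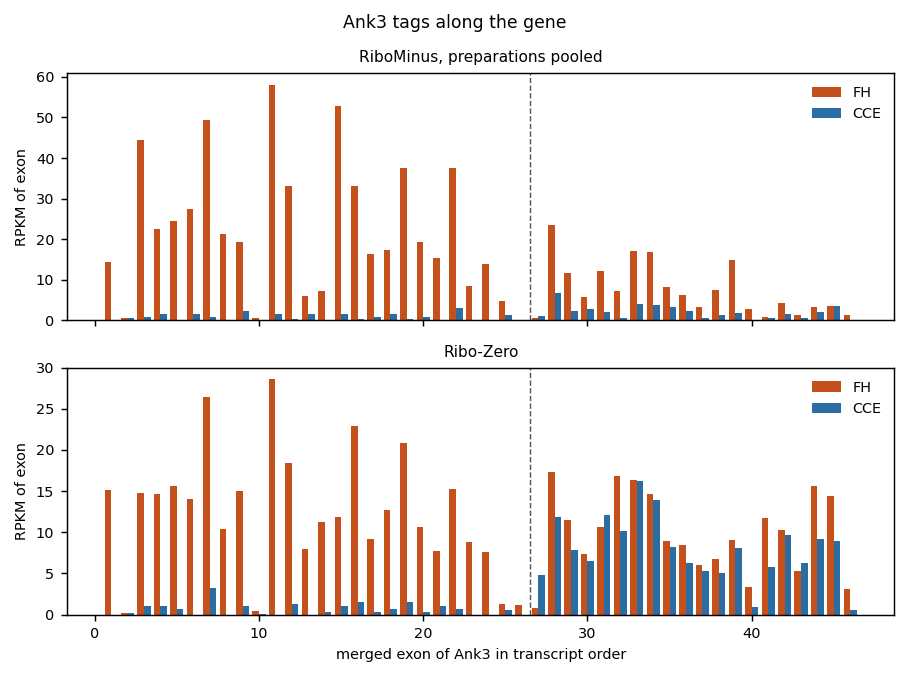
RPKM of each merged exon of Ank3 in transcript order, FH in orange and CCE in blue, with pooled RiboMinus preparations above and Ribo-Zero libraries below, and a dashed line before the exon of 660 bp. CCE bars are near 0 left of the line, and right of it they reach values near those of FH in the Ribo-Zero libraries.

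Exons longer than 2 kb inside a gene were compared by the share of the gene's exon tags that they held, and 4 exons of 4 genes had at least 20 tags of the gene in each preparation. The exact two-sided permutation test took double the smaller tail as its p, which with 4 preparations against 3 cannot fall below 0.0571. The exon of 6198 bp in Ank2 (chr3:126644528-126650725), which the giant neuronal form of ankyrin-B contains, held 13.0%, 11.4%, 8.00% and 6.06% of the tags in CCE and 16.7%, 23.4% and 23.8% in FH. The tissues did not overlap (difference 11.7 percentage points, exact permutation p = 0.0571, 0.114 adjusted over the 4 exons), and in the Ribo-Zero libraries its share was 7.34% in CCE and 32.2% in FH. An exon of 2927 bp in Nrxn2 held 0 of 150 tags in CCE and 0.797% to 2.13% in FH (exact permutation p = 0.0571). With Ribo-Zero it held 0% in CCE, where the exact upper bound was 1.52%, and 1.26% in FH, a difference not detectable at this depth. The exon of 6490 bp that makes up most of Map1b held 51.2% ± 3.22 in CCE and 52.2% ± 6.97 in FH (exact permutation p = 0.743), and the fourth, in Ncam1, 1.63% ± 0.641 and 1.02% ± 0.254 (p = 0.229 by the same exact test).

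Map2 had too few CCE tags for this comparison, so its values are given alone. Its exon of 3741 bp (chr1:66458981-66462721), which the long forms of MAP2 contain and the short forms skip, held 1 of 99 tags in CCE and 437 of 2762 in FH. Its level in FH was 11.8 RPKM against 18.4 for the other exons of the gene. With Ribo-Zero the exon held 14 of 294 tags in CCE and 9125 of 29080 in FH, where it stood at 50.4 RPKM against 32.4 for the other exons. The other exons include annotated internal exons of 2688 and 2062 bp, which make up 16.3% and 12.5% of the merged exon length. These held 168 and 145 of the 2762 FH RiboMinus tags, and 883 and 550 of the 29080 with Ribo-Zero. The levels of the other exons thus depend on this annotation.

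**Figure D3:**
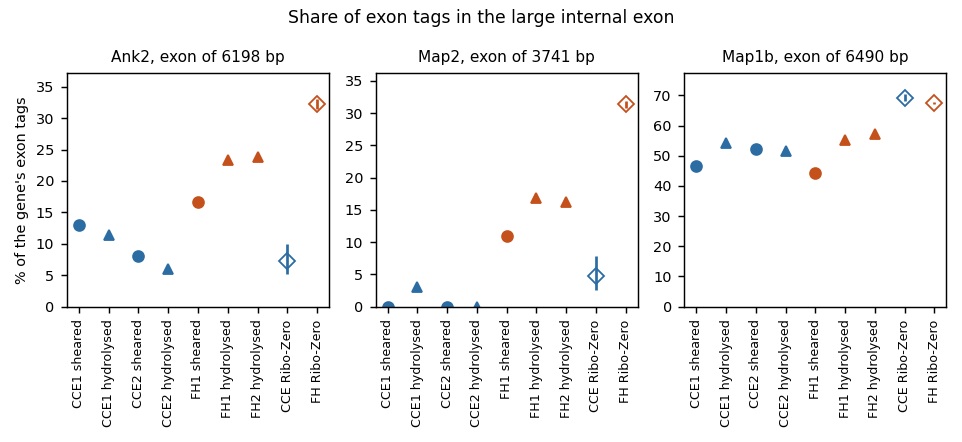
Percent of a gene's exon tags in 1 large internal exon of Ank2, Map2 and Map1b, by RiboMinus preparation (circles sheared, triangles hydrolysed) and Ribo-Zero library (diamonds with 95% exact binomial intervals), CCE in blue and FH in orange. FH lies above CCE in every library for Ank2 and Map2, while the values of Map1b overlap.

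Of 11 genes of synaptic vesicles and release, 10 passed the filter and all 10 were called higher, where 19.9% of all genes tested were. All of the 10 but Syt11, Stx1a and Vamp2 passed only through FH, so that this count had little room to be otherwise. Syt11 (chr3:88548622-88636219), a synaptotagmin that does not bind calcium, was at 7.22, 9.75, 7.97 and 8.96 RPKM in CCE and at 23.1, 24.3 and 25.1 in FH, a log2 fold change of 1.42 ± 0.16 (adjusted p = 0.000116). Vamp2 (chr11:68901992-68905886), the vesicle SNARE, was at 4.57, 6.12, 4.56 and 6.16 RPKM in CCE and at 13.2, 20.3 and 18.2 in FH, a log2 fold change of 1.51 ± 0.21 (adjusted p = 0.000302). Its Ribo-Zero values were much closer, 2.41 RPKM in CCE and 3.11 in FH, a ratio of 1.29 (1.11 to 1.50). Snap25 (chr2:136539189-136608164), the membrane SNARE that pairs with Vamp2, was at 0.0493, 0, 0 and 0 RPKM in CCE and at 1.48, 1.47 and 1.33 in FH. It missed the filter, although the tissues were far apart, and without the filter its log2 fold change was 1.26 with an adjusted p of 1.89e-05. An annotated internal exon of 4599 bp makes up 67.7% of its merged exon length but held 16 of its 95 FH RiboMinus tags. The low level and the missed filter thus depend on this annotation.

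Stx1a, the other membrane SNARE, changed least of the group with RiboMinus, from 7.64 ± 1.09 to 13.2 ± 1.82 RPKM, a log2 fold change of 0.72 ± 0.18 (adjusted p = 0.00913). With Ribo-Zero Vamp2 changed less, with a ratio of 1.29 as against 2.44 for Stx1a. Syt4 (0.110 to 15.9 RPKM on average), Syp or synaptophysin (0.491 to 15.0) and Snap91, a clathrin adaptor (0.376 to 10.3), had the largest log2 fold changes on RPKM plus 1 among the 10 tested. Syt1, the calcium sensor of fast release, was at 0.922 ± 0.274 RPKM in CCE and 5.02 ± 0.459 in FH, and the synapsins Syn1 and Syn2 reached 4.89 and 4.12 in FH. Bsn, the active zone scaffold bassoon, reached 6.05 ± 3.04 RPKM, from 3.94 in hydrolysed to 9.53 in sheared FH1. Snap25 is made with one or the other of 2 neighbouring exons of 118 bp, and in the FH Ribo-Zero library the first held 15 tags and the second 56, with 1 and 8 in FH RiboMinus.

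Adhesion genes were called higher in 6 of 6 tested, where 19.9% of all genes tested were. All of the 6 but Ncam1 passed the filter only through FH, so that this count had little room to be otherwise. Ncam1 (chr9:49310257-49607027), the neural cell adhesion molecule, was at 5.53, 8.71, 8.62 and 7.90 RPKM in CCE and at 24.1, 28.0 and 25.4 in FH, a log2 fold change of 1.64 ± 0.19. Nrxn2 (chr19:6418731-6544169), a presynaptic neurexin, was at 0.897, 0.671, 1.12 and 0.731 RPKM in CCE and at 33.6, 18.3 and 19.8 in FH, a log2 fold change of 3.70 ± 0.23. Cntn1 (chr15:91881596-92172398), a contactin, was at 0.177, 0.212, 0.118 and 0.315 RPKM in CCE and at 1.96, 3.45 and 2.94 in FH and missed the filter. Its groups lay apart as well, and the log2 fold change without a filter was 1.63 (adjusted p = 0.000742). An annotated internal exon of 3491 bp makes up 37.0% of the merged exon length of Cntn1 but held 22 of its 276 FH RiboMinus tags. The level that missed the filter thus depends on this annotation. Cntn2, Nrxn3, L1cam and Nlgn1, the postsynaptic partner of neurexins, were at 0.0793 to 0.224 RPKM in CCE and reached 18.5, 15.8, 5.80 and 3.30 in FH.

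Receptors and channels had means under 10 RPKM in FH RiboMinus. Of these, 5 of 5 tested were called higher, where 19.9% of all genes tested were. The 5 had CCE means under 3 RPKM and passed the filter only through FH, so that this count was set in advance. Grin1 (chr2:25146701-25174707), the subunit that all NMDA receptors share, was at 0.518, 0.258, 0.305 and 0.123 RPKM in CCE and at 8.35, 6.11 and 4.72 in FH (log2 fold change 2.49 ± 0.20). Annotated internal exons of 2804 and 2489 bp make up 28.9% and 25.7% of its merged exon length. They held 34 and 30 of its 571 FH RiboMinus tags, so that the level of Grin1 depends on this annotation. Cacna1b (chr2:24459407-24618672), the N-type calcium channel, was at 0.505, 0.504, 0.744 and 0.568 RPKM in CCE and at 8.52, 4.82 and 5.28 in FH (2.16 ± 0.20). Grin2b, Gria1 and Gria2, of the NMDA and AMPA receptors, had 1, 1 and 4 exon tags in all of CCE RiboMinus, and means of 5.16, 3.27 and 4.04 RPKM in FH. Gabra2 (chr5:71352296-71487088), a GABA receptor subunit, had 0 tags in CCE and was at 0.885, 1.80 and 1.26 RPKM in FH, at least 14.5-fold higher than a floor of 3 tags over the pooled CCE libraries. Scn3a (chr2:65295175-65405684), an embryonic sodium channel, was at 0.0532, 0.0797, 0.147 and 0.0236 RPKM in CCE and at 1.89, 3.15 and 2.96 in FH. Both missed the filter, and without it the adjusted p was 0.00128 and 0.000383.

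Genes of transmitter synthesis and loading were the quietest in CCE, with a summed level of 0.0894 to 0.334 RPKM. Among them 3 of 3 tested were called higher, where 19.9% of all genes tested were. The 3 passed the filter only through FH, so that this count too was set in advance. Slc32a1 (chr2:158436494-158441484), which loads GABA into vesicles, was at 0.119, 0, 0 and 0 RPKM in CCE and at 24.2, 8.25 and 8.41 in FH, with 1 tag in CCE (log2 fold change 3.66 ± 0.33). Gad2 (chr2:22477725-22549394), which makes GABA, was at 0.171, 0.0853, 0.0629 and 0.0506 RPKM in CCE and at 9.37, 9.85 and 9.88 in FH (3.29 ± 0.14). FH preparations of Gad2 lay close together, while the sheared one stood out in Slc32a1. Slc17a6 (chr7:58877200-58926495), which loads glutamate, had no tag in CCE with either kit and was at 1.72, 2.99 and 3.75 RPKM in FH, at least 57.9-fold higher with RiboMinus and at least 329-fold with Ribo-Zero, against a floor of 3 tags in CCE. Gad1 was at 0.0410 ± 0.00670 RPKM in CCE and 3.12 ± 0.417 in FH.

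Of the remaining genes, Uchl1 (chr5:67067360-67078472), a deubiquitinating enzyme abundant in neurons, was at 57.6, 52.9, 54.5 and 48.0 RPKM in CCE and at 196, 199 and 223 in FH. This was the highest CCE level of the 49 genes, and the log2 fold change was 1.93 ± 0.17 (adjusted p = 1.72e-05). Rtn1 (chr12:73312739-73510041), a reticulon of the neuronal endoplasmic reticulum, was at 0.669, 0.563, 0.739 and 0.371 RPKM in CCE and at 16.8, 10.7 and 12.6 in FH, a log2 fold change of 3.16 ± 0.19. Camk2b, a calcium and calmodulin dependent kinase, rose from 0.720 ± 0.169 to 4.18 ± 0.531 RPKM.

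Introns give a readout apart from exons, because ribo-depleted RNA holds transcripts that are not yet spliced. The 49 genes had 8425 exon tags and 4286 intron tags in CCE RiboMinus and 53638 and 50669 in FH, and in 20 genes FH intron tags outnumbered exon tags. Introns of 40 genes could be tested, and 38 were called higher in FH and 0 lower, where 24.7% of 10866 genes tested were called higher. As 33 of the 40 had a CCE mean of 0.1 RPKM or less and passed only through FH, this count too had little room to be otherwise. The median log2 fold change of the 40 was 2.12, and that of all genes tested 0.42. Nrxn3, with 1599 kb of intron, had 46 intron tags in CCE and 12956 in FH, or 0.00213 ± 0.000683 and 0.750 ± 0.279 RPKM. Dcx, Gad2 and Slc17a6 had 0 intron tags in CCE and 837, 619 and 217 in FH. In the neurofilament genes intron tags were few, 1 in CCE and 4 in FH in Nefm, and none of the 4 was tested.

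The 2 genes whose introns missed the threshold were Stx1a and Syn1. Stx1a introns were at 0.888 ± 0.207 RPKM in CCE and 0.926 ± 0.0801 in FH, a log2 fold change of 0.08 ± 0.27 (adjusted p = 0.854), while its exons were called higher. In the Ribo-Zero libraries they were at 0.530 RPKM in CCE and 0.991 in FH. Syn1, whose introns overlap Timp1 on the other strand, had a log2 fold change of 0.70 ± 0.27 (adjusted p = 0.0757), and was called without CCE2 hydrolysed (0.83, adjusted p = 0.0451) or FH1 sheared (0.89, 0.0226), with the fragmentation covariate (0.59, 0.0121) and when scaled to exon tags (1.09, 0.0281). Syt11 was called (0.96 ± 0.27, adjusted p = 0.0228), but not without CCE1 sheared, CCE2 sheared, FH1 hydrolysed or FH2 hydrolysed, where the adjusted p ran from 0.0581 to 0.114. Map1b (1.33 ± 0.31) lost the call without FH2 hydrolysed, with an adjusted p of 0.0503.

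**Figure D4:**
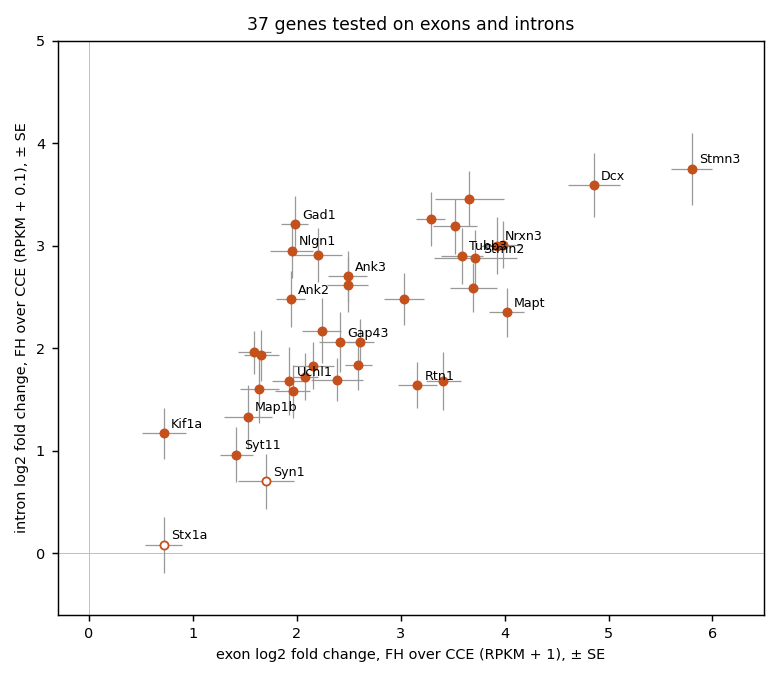
Log2 fold change of FH over CCE on exons (x axis, RPKM plus 1) and on introns (y axis, RPKM plus 0.1) for the 37 genes tested on both, with SE bars and open symbols for introns that missed the threshold. The axes carry different pseudocounts, so that sizes cannot be set against each other, and Stx1a is the gene with an intron value near 0.

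The ratio of exon to intron level was called higher in FH for 24 of 37 genes and lower for 0, where 5.35% of 8676 genes were called higher. Most of these genes are near 0 on introns in CCE, where the pseudocount of 0.1 sets the ratio, with a pseudocount of 0.5 the count was 36 of 37, and with only introns above 0.5 RPKM it was 2 of 9. Without FH1 hydrolysed it was 15. The ratio of mean levels, without a pseudocount, was lower in FH in 7 of the 24 genes called higher, and 3 more had no CCE intron tag, so that the count gives no direction for the list. Nrxn3, for one, was called higher while its ratio of means went from 46.2 in CCE to 21.1 in FH. Mapt, with 82 intron tags in CCE, was called, its exons standing 12.0 times above its introns in CCE and 37.7 times in FH. Its log2 difference in the limma fit was 2.62 (adjusted p = 0.000488). This exceeds the change between these ratios, as the pseudocount of 0.1 is above its CCE intron mean of 0.0681 RPKM. In Kif1a, with 418 intron tags in CCE, the ratios were 40.1 and 26.6 (adjusted p = 0.295), and in Ncam1, with 1319, they were 22.3 and 20.8 (adjusted p = 0.664). Within FH RiboMinus exons stood least far above introns in Gad1, by 3.12 times, Snap25, by 4.18, and Nlgn1, by 4.33, and most in Stmn2, by 189 times, and Gap43, by 125, among genes with at least 100 intron tags in FH. In the FH Ribo-Zero library the ratio of Stmn2 was 24.3 and that of Gap43 75.0. The low ratios of Gad1 and Snap25 depend on the annotation, as large internal exons make up 40.1% and 67.7% of their merged exon length. These held 52 of 242 and 16 of 95 FH RiboMinus exon tags.

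The Ribo-Zero libraries, read beside the preparations and without a test, gave FH above CCE for 48 of the 49 genes, each with a 95% interval of the ratio above 1, as in 27.6% of all 18606 genes with a tag. A ratio over 4 was found in 33 of the 39 genes with at least 3 RPKM in a library, and in 7.62% of the 10057 such genes in all, but 29 of the 39 reached 3 RPKM only in FH. The levels themselves differed between the 2 kinds of library. In the FH Ribo-Zero library 9 genes were over 2 times higher and 15 over 2 times lower than in the FH RiboMinus mean. Shares of all genes beyond these limits are not given. The Ribo-Zero libraries also came from other RNA and were sequenced elsewhere (Vienna-CeMM), on another machine and with longer tags. The part of the kit thus cannot be told apart. The median ratio of Ribo-Zero to RiboMinus level in FH was 0.709 over the 43 genes with an FH mean above 3 RPKM. Over all 8959 such genes it was 0.618. Stmn2 was at 218 RPKM in FH RiboMinus and at 21.6 with Ribo-Zero, where its ratio to CCE was 2.17 (1.97 to 2.39). Grin1 and Ank3 likewise came closer, with ratios of 2.17 (1.82 to 2.60) and 2.40 (2.24 to 2.57). Others went the opposite way. Map1b was at 20.1 RPKM in FH RiboMinus and 98.1 with Ribo-Zero, Kif5c at 11.3 and 48.7, and Nefl at 5.74 and 31.2, where its ratio was 5.76 (5.26 to 6.31). Tubb3 had 16.9 RPKM in CCE RiboMinus and 1.57 with Ribo-Zero, so that its ratio went from 12.8 to 62.6 (50.5 to 78.5), and Uchl1 had 53.2 and 11.1.

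**Figure D5:**
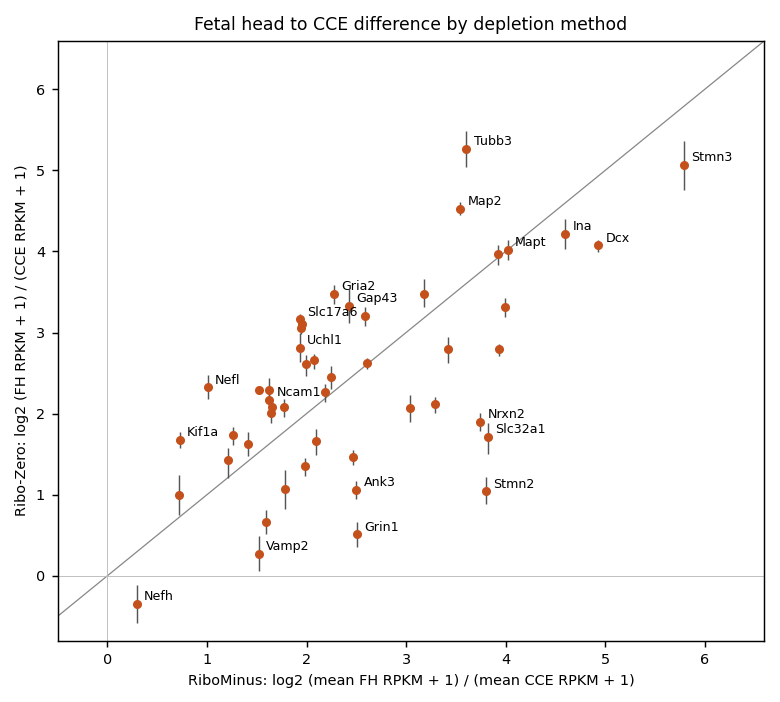
Log2 ratio of FH to CCE on RPKM plus 1 for the 49 genes, from the means of the RiboMinus preparations (x axis) and from the Ribo-Zero libraries (y axis), with a line of equal values and bars that join the ends of the 95% Poisson intervals. Stmn2, Grin1, Nrxn2 and Slc32a1 lie well under the line, Tubb3 and Nefl above it, and Nefh is below 0 with Ribo-Zero.

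The base composition of exons moved with these differences. Over 43 genes with an FH mean above 3 RPKM, the ratio of Ribo-Zero to RiboMinus level in FH had a Spearman rho of -0.40 with the GC content of exons, and the ratio of hydrolysed to sheared level one of -0.59. Over all 8959 such genes the values were -0.56 and -0.67. The points share libraries, and the kits were used on different RNA and sequenced at different locations, so that the part of base composition was not tested. GC-poor Gria2 (38.1%), Nlgn1 (41.1%) and Dcx (39.5%) were 2.35, 2.05 and 2.03 times higher in hydrolysed than in sheared FH, and Stmn2 (45.8%) 2.72 times, while Snap25 (39.2%) was at 0.944. The GC content of Snap25 depends on the annotation, as its internal exon of 4599 bp makes up 67.7% of the merged length. That exon held 16 of its 95 FH RiboMinus tags. GC-rich Slc32a1 (61.9%), Bsn (59.8%), Stx1a (59.3%) and Nrxn2 (58.6%) were at 0.345, 0.452, 0.799 and 0.566 of the sheared level, while Tubb3 (57.9%) was at 1.36 and Stmn3 (57.1%) at 1.13.

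Further genes of the same kind, and relatives that most cells express, were measured as a frame. Of 51 other neuronal cytoskeleton and synapse genes 32 passed the filter, and 30 were called higher and 0 lower. Of all genes tested 19.9% were called higher. Most of the 32 had a CCE mean of 3 RPKM or less and passed only through FH, so that this count too had little room to be otherwise. The median log2 fold change of the 32 was 2.13. With hydrolysed preparations alone 31 were higher and 3 lower. Dpysl5, a growth cone protein, had a log2 fold change of 4.14 ± 0.20. Among the 32 tested, the lowest values were those of Cacna1a (-0.27, adjusted p = 0.271) and Basp1 (-0.19, adjusted p = 0.527). Basp1, a growth cone protein, was at 183 ± 26.2 RPKM in CCE and 164 ± 50.9 in FH. Cacna1a and Basp1 turned to 0.03 and 0.16 when libraries were scaled to exon tags. Gria3 and Syn3, which missed the filter, had lower RiboMinus means in FH (2.55 to 1.58 and 2.40 to 1.59 RPKM). With Ribo-Zero Gria3 was lower in FH too, and Syn3 was higher. Of 26 widely expressed relatives 21 passed, and 0 were higher and 11 lower, with a median of -0.57, where 34.8% of all genes tested were lower. When libraries were scaled to exon tags, 1 of 23 was higher and 5 were lower, where 18.9% of all genes tested were lower.

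Several relatives could be set beside a member of their own family. Rtn4 had a log2 fold change of -1.04 ± 0.16 and Rtn3 one of 0.18 ± 0.26 (adjusted p = 0.580), as against 3.16 for Rtn1. Kif5b had -1.20 ± 0.18, as against 1.96 for Kif5c and 2.24 for Kif5a. Tubb6, the beta-tubulin with the largest drop, fell from 553 ± 184 to 70.7 ± 10.8 RPKM (-2.90 ± 0.28), and Tubb5 stood at 1283 ± 410 and 1024 ± 246 RPKM (-0.29, adjusted p = 0.453). Uchl5 had -1.27 ± 0.25, as against 1.93 for Uchl1. Tuba1b, Snap23, Vamp3, Map4, Napa, Camk2g and Camk2d were called lower as well, with log2 fold changes of -1.09 to -0.54. Several of these, such as Vamp3 and Camk2g, lost the call when libraries were scaled to exon tags. The other relatives were not called or missed the filter. Kif1b had 0.37 ± 0.20 (adjusted p = 0.142), as against 0.72 for Kif1a, and was called higher when scaled to exon tags (0.72, adjusted p = 0.0240) or by median ratios (0.61, 0.0205). Stmn1, which missed the filter, was at 0.290 ± 0.246 RPKM in CCE and 1.41 ± 0.0340 in FH, and at 0.725 and 3.12 with Ribo-Zero. Only uniquely placed tags were counted, so that the level of a gene with close copies elsewhere can be read too low. Stx7 had 0.04 ± 0.29 (adjusted p = 0.920), as against 0.72 for Stx1a. The difference between relatives was not tested. Tubb6, Kif5b, Uchl5 and Rtn4 were lower in FH under each scaling tried.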

How the data were processed

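Tags of ribo-depleted total RNA from CCE and FH were analysed in 14 RiboMinus and 2 Ribo-Zero libraries. The authors aligned them with Bowtie to mm9 and deposited 1 line per uniquely placed tag with its start and end, and no counts or levels. Here RPKM, log2 values and ratios were computed from these deposited positions over merged GENCODE M1 exons, without strand, with all unique tags of a library as the scale. This scale includes 2363248 (CCE) and 2200005 (FH) mitochondrial tags with Ribo-Zero, and the RiboMinus files held none. Tags of both sequencing locations were summed per preparation, whose numbers follow the study's list of libraries. Hydrolysed preparations may be numbered in the opposite order at the 2 locations, which would mix them in each hydrolysed value.

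The tissues were compared by limma (version 3.58.1, run under R 4.3.3), using a trended variance and Benjamini-Hochberg adjustment at 0.05. Exons used RPKM plus 1 and a mean above 3 RPKM in a tissue. Introns, outside all exons, used RPKM plus 0.1, at least 1 kb of intron and a mean above 0.1 RPKM. The fit was first tested on simulated data. Intervals are exact at 95% and cover counting error only. Counting and figures relied on scipy 1.17.1, pandas 2.3.3 and matplotlib 3.10.9 under Python 3.11.15, with numpy 2.4.6.

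The 49 genes, the other gene lists and the markers were chosen with earlier results of these data known. Values of every preparation are given for the 2 genes of each role with the highest FH level and for each gene not called, and from other lists the 2 largest changes in each direction, of which 1 gene is not reported here. Relatives set beside a member, and the parts of Ank3, Map2 and Snap25, were chosen after their values were seen. Of 49 genes, 20 have exon inside the span of another gene. Alternatives were other pseudocounts, filters, scalings and models, repeated starts counted once, single locations, hydrolysed preparations, and each preparation left out. The 8 samples without a file were not analysed here.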

Additional observations from a re-analysis of the deposited data

Results flagged for a closer look

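In 6 of the 49 genes 1 of the 4 CCE preparations stood apart from the other 3, by Dixon's criterion at the 95% level, which chance passes in about 1 of 20 groups. Stmn2 was at 8.15 RPKM in CCE2 sheared, on 42 tags, and between 16.4 and 17.6 in the others. Stx1a was at 6.02 RPKM in CCE2 hydrolysed, on 54 tags, and between 8.08 and 8.29 in the others. The remaining 4 rest on a single tag where the other preparations had none, namely Snap25 (0.0493 RPKM) and Slc32a1 (0.119) in CCE1 sheared, and Gria1 (0.0492) and Grin2b (0.0364) in CCE2 hydrolysed.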

How the results depend on the processing

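With a preparation left out, the number of the 49 genes called higher on exons ran from 40 of 41 tested (FH2 hydrolysed) to 44 of 46 (FH1 sheared). Of all genes tested in these 2 runs, 1791 of 10294 and 1994 of 10310 were higher. The list had 42 of 43 with the replicate number as a block and also with the numbers of the Nijmegen libraries crossed. It had 39 of 42 in the Nijmegen libraries, where 1581 of all 10323 genes were higher. With a mean above 3 RPKM over all 7 preparations it had 28 of 29, where 1445 of all 9242 were higher. None of the 49 genes was called lower on exons under any alternative run. Same-numbered preparations did not move together (r = -0.161 over 9242 genes), so that the block says nothing of a pair. With it 1927 genes in all were higher and 3177 lower on exons, 2426 and 406 on introns and 419 and 2843 on the ratio. All genes higher on exons came to 3356 with no filter and to 3374 scaled to exon tags, where 2274 were lower. On introns they came to 4092, with 1112 lower, with a fragmentation covariate, to 709, with 261 lower, above 0.5 RPKM, and to 4911 scaled to exon tags. Above 0.5 RPKM, 8 of the 9 genes of the list that remained were called on introns and 2 on the ratio. Of the 9, Stmn2, Stmn3 and Dcx had CCE intron means of 0.0677, 0.0269 and 0 RPKM. These genes passed only through FH, so that their intron calls had little room to be otherwise. The number of all genes tested at this filter is not given, so that the counts describe only the list. Over all genes the ratio was higher in 58 and lower in 1168 above 0.5 RPKM. With a pseudocount of 0.5 it was higher in 873. Leaving out a preparation gave 1385 (FH1 hydrolysed) to 3255 (FH1 sheared) genes higher on introns, 305 (FH2 hydrolysed) to 505 higher on the ratio, 1859 (FH1 hydrolysed) to 3631 lower on it, and 15 (FH1 hydrolysed) to 25 of the list higher on it. The FH minus CCE difference in the share of the large Map1b exon ran from -1.57 without FH2 hydrolysed to 4.90 percentage points without FH1 sheared. In the Vienna-IMP libraries this difference was -1.15. It was -0.595 without CCE1 sheared and -0.575 without FH1 hydrolysed. The Tubb3 ratio turned to -0.15 with repeated starts counted once (adjusted p = 0.779). The cause of these changes was not tested. The Ank2 exon difference was at least 10.4 percentage points with any 1 preparation left out. Kif1a on exons also lost its call in the Nijmegen libraries, where its log2 fold change was 0.84 (adjusted p = 0.0712), and with repeated starts counted once (0.59, 0.0620), and Stx1a did in the Nijmegen libraries (0.155). Nefl was called with libraries as units (0.0280), in the Vienna-IMP libraries (0.0414), with hydrolysed preparations alone (0.00349) and scaled to exon tags (0.0394). Between 12 and 4604 FH RiboMinus tags stand behind the exon level of each of these genes, and those with few CCE tags allow no fold change beyond a bound.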
